A study of Mus with 4 samples.

Results

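The RNAs described here are circular RNAs (circRNAs) made from protein phosphatase genes. A circRNA is a closed ring in which a splice donor has joined an acceptor that lies upstream of it, and a read across such a back-spliced junction (a junction read) was the unit counted. The circRNAs were chosen by the symbol of their host gene, which had to be the single host in the deposited table and to start with Ptpr or Ptpn, or with Ppp or Dusp followed by a digit. By this rule 615 of 44073 circRNAs were members, and they came from 74 of 7146 host genes. Of these hosts, 33 encode regulatory subunits (1 of them, Ppp4r1l-ps, is a pseudogene related to Ppp4r1), and the other 41 are named as phosphatases themselves. Junction reads report circRNA abundance only. Linear RNA was removed before sequencing, so the counts do not give the level of the genes' messenger RNAs, and fewer cells of a type cannot be told apart from less RNA per cell.

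Protein phosphatases remove phosphate groups from serine, threonine or tyrosine residues and so reverse the action of protein kinases. The serine and threonine phosphatases PP1, PP2A, calcineurin, PP4 and PP6 pair a small set of catalytic subunits with many regulatory subunits that choose the substrate and the place of action. The protein tyrosine phosphatases are either receptors that span the membrane (Ptpr genes) or soluble and cytoskeletal enzymes (Ptpn genes), and the dual-specificity enzymes (Dusp genes) act mainly on MAP kinases.

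Ocular tissue came from C57BL/6J mice. They were wild type or carried a VLDLR deletion, which removes the receptor for very low density lipoprotein. All 4 groups were kept in 75% oxygen between postnatal days 7 and 12, and none was kept in room air throughout. Tissue was taken on day 12 (P12), directly after the oxygen, or on day 13 (P13). Each of the 4 groups held 1 library. The labels say neither how the VLDLR deletion was made nor how many animals a library holds. Values are given below with wild type first (P12, then P13) and the deletion second (P12, then P13).

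In this order the 4 tables summed to 662811, 759063, 299723 and 341873 junction reads, so the deletion libraries were the shallower ones. The wild-type libraries shared 1 sequencing run and the deletion libraries another, so genotype and run cannot be told apart in any comparison below, and between days age cannot be told apart from the return to room air. The labelled tissue was checked with host genes of eye cell types. Photoreceptor genes had junction reads for 12 of 15 genes (Cnga1 and Rom1 were among those unlisted) and summed to 3357, 4614, 2289 and 2547 reads. Lens fibre genes, 3 of 6 with reads, summed to 370, 512, 662 and 572 reads, and striated muscle genes, 6 of 6, to 1374, 1622, 657 and 885. Scaled to library size as described below, the photoreceptor sum was 5379, 6486, 8462 and 8308 and the lens sum 593, 720, 2447 and 1866, both higher in the deletion libraries. Leukocyte genes were near 0, with 0, 0, 3 and 3 reads in 1 of 4 genes. Ptprc, the leukocyte receptor phosphatase CD45, had no listed circRNA. Vldlr had no listed circRNA either, so the deleted gene gave no check of the labels.

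Phosphatase circRNAs held 7484, 8712, 3149 and 3558 junction reads, which was 1.13%, 1.15%, 1.05% and 1.04% of each library. The share was therefore nearly even over the 4 libraries. Reads scaled to 1000000 of each library's effective size (edgeR's TMM method, below "scaled reads") summed to 13098, 13450, 12183 and 12242 over the members. Without the gene Ptpn21 they summed to 11974, 12451, 11924 and 11959, which leaves wild type P12 and both deletion libraries within a narrow range.

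The members were mostly built from exons, with 544 circRNAs (88.5%) of the exon class and 71 (11.5%) of the intron class, against 91.6% and 8.41% over all circRNAs with 1 host. Their ends lay a median of 13178 bases apart on the genome, with a range of 272 to 195362, against a median of 10690 over all. In the 4 libraries 405, 453, 272 and 291 of them were listed. A table lists a circRNA from 2 reads on, so an unlisted circRNA can still hold 1 read. Listed in every library were 178 members (28.9%, against 25.2% of all circRNAs), and these held 84.8% of the members' reads. A further 252 (41.0%, against 42.3%) were listed in wild type alone and 60 (9.76%, against 10.7%) in the deletion alone (the wild-type libraries being the deeper ones).

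Reads were concentrated in few hosts. The 4 hosts with most reads held 40.8% of the members' reads and the first 20 held 83.3%. Ptpn4, a cytoskeleton-linked tyrosine phosphatase of neurons, had the most distinct circRNAs, 46, while 14 hosts had 1 each. The median was 5 circRNAs per phosphatase host and 3 per host over all genes. At the other end, 12 hosts had under 10 reads in all.

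**Figure D1:**
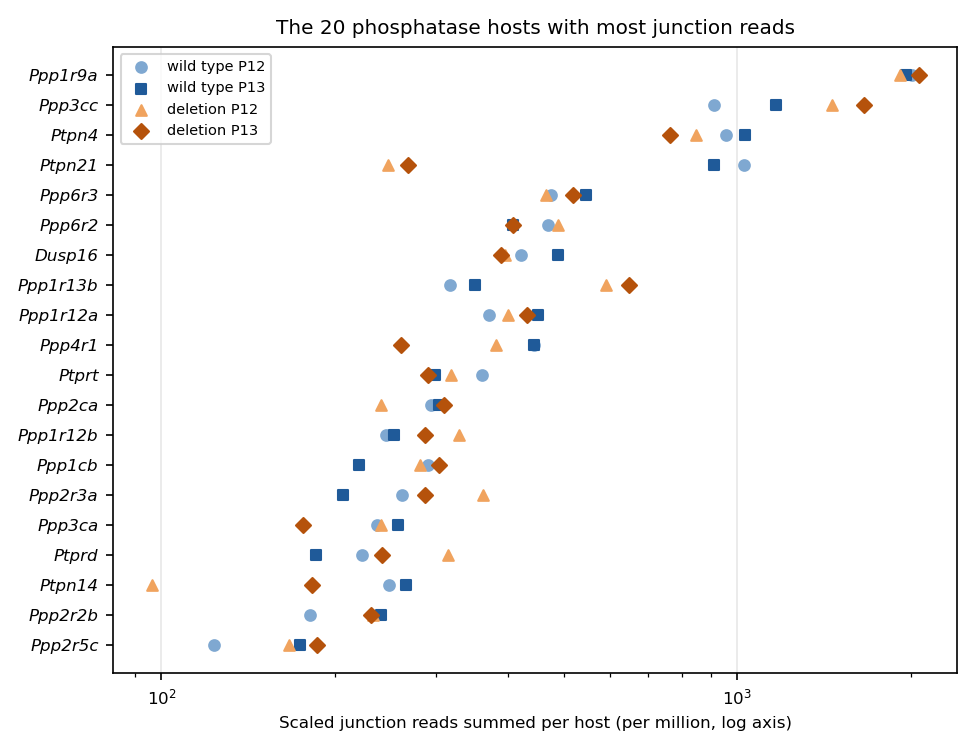
Junction reads summed per host, scaled to library size (scaled reads, horizontal log axis), for the 20 phosphatase hosts with most reads; each point is 1 library. Ptpn21 and Ptpn14 lie lower in both deletion libraries and Ppp3cc and Ppp1r13b lie higher (a sign that turns under the deposited SRPBM scaling), while the other hosts shown differ by less than these 4.

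Among the regulatory subunits of PP1, the largest family by reads (14 hosts, 99 circRNAs, 27.5% of members' reads), neurabin-1 (Ppp1r9a), which anchors PP1 at the actin of dendritic spines, was the most abundant phosphatase host of all. It had 1254, 1399, 519 and 633 reads over 32 circRNAs. Its main circRNA, an exonic one (chromosome 6, 5100432 to 5115480), had 635, 696, 287 and 295 reads, the most of any member, and ranked 102 among all circRNAs. The genotype difference was -0.04 (log2, deletion over wild type, edgeR adjusted p = 0.904), and the scaled sums of the host overlapped between the genotypes. The myosin phosphatase targeting subunits Ppp1r12a and Ppp1r12b held 791 and 510 reads over the libraries, after 806 for Ppp1r13b, and their log2 differences of 0.02 and 0.30 did not pass the test.

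Of the catalytic subunits of this phosphatase superfamily (9 hosts, 79 circRNAs, 18.1% of reads), those of calcineurin, the calcium-activated phosphatase, had most. Ppp3cc, its gamma isoform, held 568, 832, 395 and 508 reads, and Ppp3ca, its alpha isoform, 148, 183, 65 and 54. PP2A's catalytic subunit Ppp2ca held 183, 216, 65 and 95 reads and PP1's beta catalytic subunit Ppp1cb 181, 157, 76 and 93. Relative to library size only Ppp3cc among these 4 differed by the genotype test described below.

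PP2A's regulatory subunits (11 hosts, 63 circRNAs, 8.03% of reads) were led by Ppp2r3a with 163, 147, 98 and 88 reads. Its main circRNA (chromosome 9, 101175328 to 101194425) held 67, 51, 35 and 30. Ppp2r2b, a B55-type subunit enriched in neurons, held 418 reads over the libraries and Ppp2r5c, a B56-type subunit, 303. None of the 17 tested circRNAs of this family passed the genotype test, and their median log2 difference was 0.30 (-1.16 under the SRPBM scaling, against -1.54 over all circRNAs).

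Subunits of PP4, PP6 and calcineurin (8 hosts, 108 circRNAs, 12.8% of reads) were led by the PP6 subunits Ppp6r3 and Ppp6r2 with 969 and 840 reads. Ppp4r1, a regulatory subunit of PP4, held 277, 316, 103 and 80. The family's most abundant circRNA came from Ppp4r1 (chromosome 17, 65803211 to 65816050) with 115, 136, 42 and 40 reads.

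Receptor tyrosine phosphatases (16 hosts, 152 circRNAs) had the most circRNA species but 10.9% of reads. Ptprt, which is expressed in the nervous system, held 225, 212, 86 and 89 reads, and Ptprd, a synaptic adhesion receptor of the LAR type, 139, 132, 85 and 74 over 34 circRNAs. The most abundant single circRNA of the family came from Ptprr, a phosphatase of MAP kinases (chromosome 10, 116177718 to 116188468), with 50, 46, 15 and 14 reads. Reads in this family were thus spread over many species of low count.

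Non-receptor tyrosine phosphatases (12 hosts, 107 circRNAs, 19.0% of reads) were led by Ptpn4 with 597, 734, 229 and 234 reads and by Ptpn21. The main Ptpn4 circRNA (chromosome 1, 119741355 to 119765922) held 230, 305, 85 and 79. Of the dual-specificity genes (4 hosts, 7 circRNAs, 3.70% of reads) Dusp16, a phosphatase of the stress-activated kinases JNK and p38, was the single abundant one. It had 263, 347, 107 and 119 reads, of which 232, 300, 96 and 110 came from 1 circRNA (chromosome 6, 134758619 to 134761434).

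The first comparison asks which phosphatase circRNAs differ between VLDLR deletion and wild type. It used edgeR's quasi-likelihood test with genotype and day as additive terms, over the 8785 circRNAs that reached 10 reads in 2 or more libraries. P-values were adjusted over all of these by the Benjamini-Hochberg method, and the threshold was 0.05. With 4 libraries the model has 1 residual degree of freedom, and p-values measure only the spread between these libraries. Of the members 136 were tested, from 43 hosts and with 80.8% of members' reads, and 479 were not. Of the tested ones 41 reached the filter through the wild-type libraries alone and 0 through the deletion libraries alone.

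Higher in the deletion were 3 of 136 members and lower were 6, together 6.62%. Over all tested circRNAs 8.62% were called, 5.03% higher and 3.59% lower. Members were therefore called no more often than circRNAs in general. At an unadjusted p under 0.05 there were 8 higher and 12 lower members, where 20.6% of all circRNAs passed in either direction. DESeq2 called 1 higher and 1 lower of the 45 members with a DESeq2 adjusted p, and 10.3% of all such circRNAs. The median log2 difference was -0.14 over the tested members and -0.08 over all circRNAs, with 79 of 136 members below 0. The authors' own scaling, SRPBM, multiplies junction reads by 1 constant per library and moves the median over all tested circRNAs to -1.54 and that over the tested members to -1.58. Under it 0 of 136 members were higher and 70 lower. This count goes with the shift of all circRNAs and is no result about the members. The directions given here are therefore relative to the bulk of circRNAs.

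The 9 called circRNAs were all of the exon class, came from 7 hosts and had ends 294 to 14224 bases apart. These hosts had 27 tested circRNAs, of which the other 18 did not pass. For most of them a call on 1 circRNA was thus not a call on every circRNA of the gene. Among the lower calls, those from Ptprt, Ppp1r37 and the less abundant of Ptpn21 reached the read filter through the wild-type libraries alone. That favours a lower value in the deletion.

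**Figure D2:**
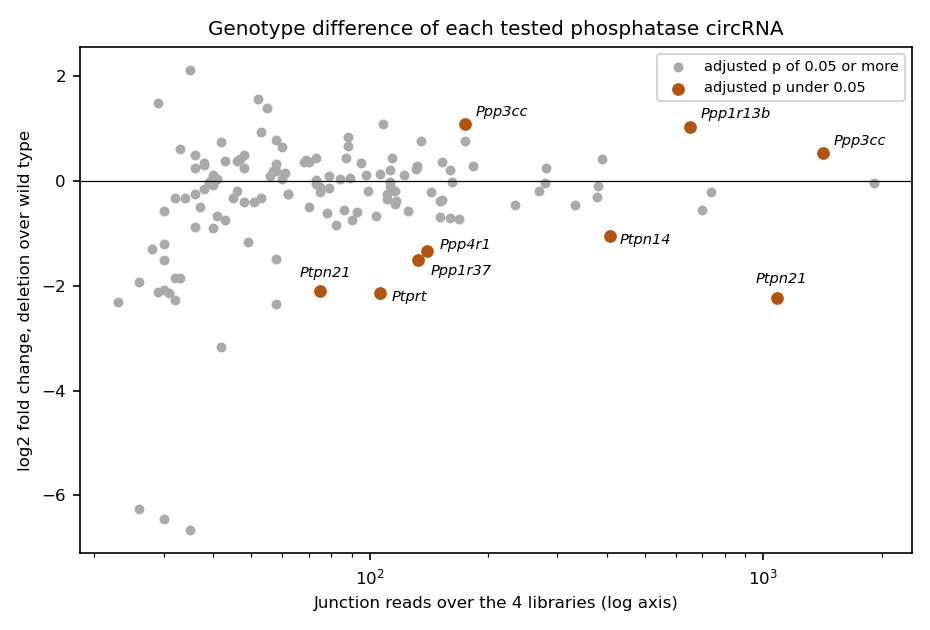
Log2 difference, deletion over wild type, of the 136 tested phosphatase circRNAs (vertical axis) against their junction reads over the 4 libraries (horizontal log axis). The 9 with an adjusted p under 0.05 are named; the 3 points below -6 have no listed read in either deletion library, where the fitted size is no bound, and the 3 higher calls turn to negative values under the deposited SRPBM scaling.

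Ptpn21, a tyrosine phosphatase with a FERM domain that ties it to the membrane cytoskeleton, had the smallest adjusted p of all members. Its main circRNA lies on the minus strand of chromosome 12 from 98733474 to 98733834 in the coordinates of the deposited tables, with its ends 361 bases apart. It held 471, 516, 46 and 49 junction reads, or 824, 797, 178 and 169 scaled reads. Both wild-type libraries were far above both deletion libraries, and within each genotype the days were close. It fell by 2.22 on the log2 scale (SE 0.18, edgeR adjusted p = 5.73e-07; DESeq2 adjusted p = 5.90e-14). The deletion over wild-type ratio of single libraries was 0.216 at P12 (95% counting interval 0.156 to 0.293) and 0.212 at P13 (0.155 to 0.284).

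The second most abundant Ptpn21 circRNA behaved otherwise. It lies at 98682519 to 98683615, at the far end of the listed circRNAs from the main one, and held 35, 18, 6 and 20 reads. Its log2 difference was 0.10 (edgeR adjusted p = 0.945). The highest scaled values were those of deletion P13 and wild type P12, so the genotypes overlapped. The deletion over wild-type ratio was 0.379 (0.130 to 0.911) at P12 and 2.48 (1.24 to 4.97) at P13. Whether these ratios differ between the days could not be tested with 1 library per group.

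Another circRNA of the gene, from 98704142 to 98715193, held 38, 30, 4 and 3 reads and fell by 2.11 (SE 0.59, edgeR adjusted p = 0.0312). DESeq2 gave no adjusted p for it. Both deletion libraries lay below both wild-type libraries. Without deletion P13 the edgeR adjusted p was 0.0683.

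The gene had 14 circRNAs in all, of which 12, 12, 7 and 6 were listed in the 4 libraries and 5 in neither deletion library. Of the 7 tested, 6 had a log2 difference below 0. Several of these, the one from 98704142 to 98715193 among them, reached the read filter through the wild-type libraries alone, which favours a negative sign. The count of signs is therefore no support for a drop across the gene. The 13 circRNAs other than the main one held 171, 131, 21 and 33 reads together (299, 202, 81.2 and 114 scaled reads). Their sum was thus also lower in both deletion libraries, and 1 of them, from 98704142 to 98715193, was called. The back-splice end at 98733834, which is the acceptor of the main circRNA, was used by 4 of the circRNAs, and these held 513, 554, 46 and 52 reads, or 81.0% of the gene's reads over the libraries.

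Summed per gene, Ptpn21 held 642, 647, 67 and 82 reads and fell by 1.90 (SE 0.17, edgeR adjusted p = 5.59e-26). The main circRNA made up 73.4% (95% exact binomial interval 69.8 to 76.7), 79.8% (76.4 to 82.8), 68.7% (56.2 to 79.4) and 59.8% (48.3 to 70.4) of these reads. The share was lower in both deletion libraries than in both wild-type libraries, but the intervals of both overlapped that of wild type P12.

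The deposited tables also count reads at the same splice positions that do not cross the back-spliced junction. At the main Ptpn21 circRNA these numbered 148, 151, 30 and 30. The deletion over wild-type ratio of these raw counts was 0.203 at P12 and 0.199 at P13, while the median over the 8135 circRNAs with at least 20 such reads in each library was 0.488 and 0.494. Non-junction reads at these positions thus also lay lower in the deletion libraries than at most circRNAs. The deposited junction ratio counts each junction read 2 times and divides by the sum of these and the non-junction reads. It is thus higher than the plain share of junction reads. At the main Ptpn21 circRNA it was 0.864, 0.872, 0.754 and 0.766, lower in both deletion libraries. No marker list of the eye cell types had a lower scaled sum in both deletion libraries than in both wild-type libraries (the endothelial genes, for example, summed to 64.1, 108, 85.0 and 94.6). The lists cover only some cell types of the eye. Whether cell numbers had a part in the Ptpn21 result was not tested.

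**Figure D3:**
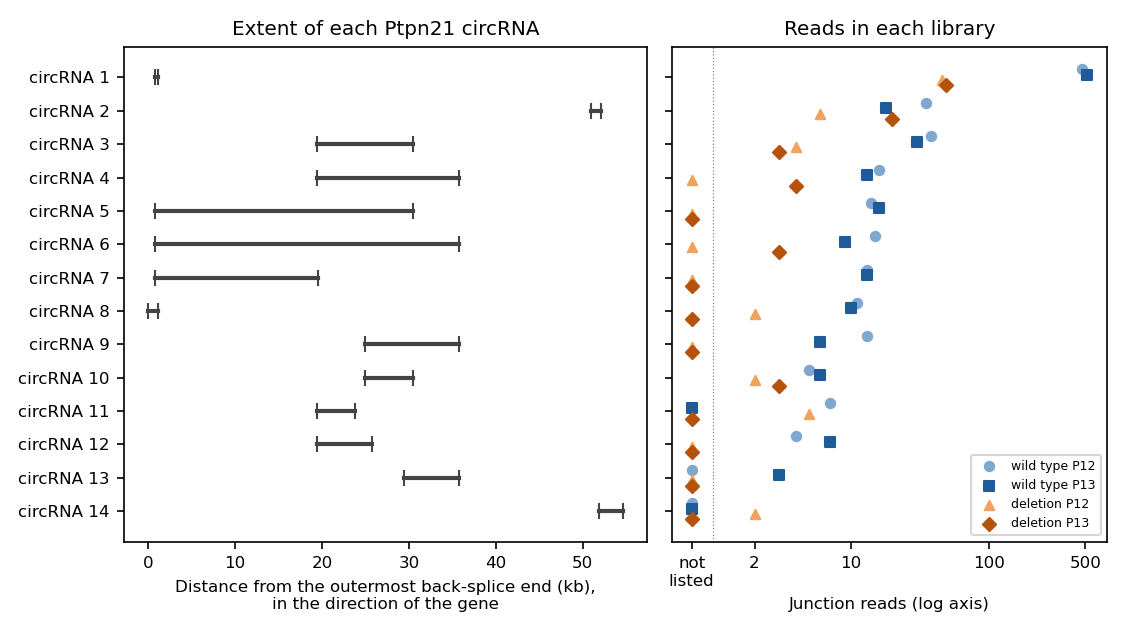
Left, the extent of each of the 14 Ptpn21 circRNAs in kilobases from the outermost back-splice end, in the direction of the gene, ordered by total reads. Right, junction reads of each in the 4 libraries (log axis, with a separate position for not listed); circRNA 1 holds 471, 516, 46 and 49 reads and circRNA 2 holds 35, 18, 6 and 20.

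Ptpn14, the closest relative of Ptpn21 and a regulator of the transcriptional coactivator YAP, also had a lower circRNA (chromosome 1, 189786636 to 189798681). It held 147, 185, 23 and 52 reads, or 257, 286, 89.0 and 179 scaled reads, and fell by 1.05 (SE 0.25, edgeR adjusted p = 0.0132; DESeq2 adjusted p = 0.0816). Deletion P12 was the lowest library, and deletion P13 lay between it and the wild-type libraries. Without deletion P12 the difference was -0.59 (edgeR adjusted p = 0.207), so the call rests on that library. Summed over the gene the log2 difference was -0.90 (edgeR adjusted p = 0.00775, and 0.370 by DESeq2).

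Over the 12 non-receptor tyrosine phosphatase hosts, 0 of 24 tested circRNAs were higher and 3 were lower, 2 from Ptpn21 and 1 from Ptpn14. Over all tested circRNAs 5.03% were higher and 3.59% lower. The median log2 difference was -0.57 in the family, where Ptpn21 gave 7 of the 24, and -0.08 over all circRNAs. Under the SRPBM scaling these medians were -2.03 and -1.54. Some of the 24 tested circRNAs reached the read filter through the wild-type libraries alone, which favours a negative median. The family median is therefore no support for a drop across the family. The scaled sum of the family was 2846, 2821, 1664 and 1607 scaled reads. Without Ptpn21 it was 1722, 1822, 1404 and 1325, still lower in both deletion libraries but by less. Ptpn4 contributed 597, 734, 229 and 234 reads to it, with a log2 difference of -0.31 that did not pass the test (edgeR adjusted p = 0.128).

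In the receptor family a short Ptprt circRNA (chromosome 2, 162135212 to 162135505) held 48, 48, 8 and 2 reads and fell by 2.13 (SE 0.54, edgeR adjusted p = 0.0177; without deletion P13, -1.33 and 0.120). The short circRNA reached the read filter through the wild-type libraries alone, which favours a lower value in the deletion. Another Ptprt circRNA (161901448 to 161927778) held 20, 35, 19 and 34 reads, with a log2 difference of 1.09 that did not pass the test (edgeR adjusted p = 0.0968). The short circRNA made up 21.3%, 22.6%, 9.30% and 2.25% of the gene's reads and the long-span one 8.89%, 16.5%, 22.1% and 38.2%. The 2 circRNAs therefore lay on opposite sides, and the sum over the gene differed by -0.11 (edgeR adjusted p = 0.806). Of the 13 receptor hosts tested on summed reads, 0 were called in either direction. Ptprf, a LAR-type receptor and the furthest below 0 of them, held 21, 26, 0 and 3 reads (log2 -2.82, edgeR adjusted p = 0.0673).

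Among the PP1 subunits the calls went both ways. Ppp1r37, which binds and inhibits PP1, had a circRNA (chromosome 7, 19533964 to 19537467) with 53, 62, 9 and 9 reads that fell by 1.51 (SE 0.42, edgeR adjusted p = 0.0303; DESeq2 adjusted p = 0.185). Both deletion libraries lay below both wild-type libraries, and this circRNA held 88.6% to 100% of the gene's reads. The circRNA reached the read filter through the wild-type libraries alone, which favours a lower value in the deletion. Ppp1r37 summed reads, 55, 70, 9 and 9, fell by 1.57 (edgeR adjusted p = 0.0102). Without deletion P13 the edgeR adjusted p was 0.0611 for the circRNA and 0.0502 for the sum.

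Ppp1r13b, also called ASPP1, a partner of p53 that binds PP1, went the other way. Its circRNA (chromosome 12, 111858210 to 111872433) held 147, 192, 141 and 172 reads, or 257, 296, 546 and 592 scaled reads. Raw counts were alike in all libraries although the deletion libraries were the shallower ones, so both deletion libraries were higher after scaling. It rose by 1.04 on the log2 scale (SE 0.18, edgeR adjusted p = 9.26e-04; DESeq2 adjusted p = 0.00232), and the sign turned to -0.42 under the deposited SRPBM scaling, where the median circRNA is at -1.54. Its share of the gene's reads, which needs no scaling, was 74.2% (67.6 to 80.2), 77.1% (71.4 to 82.2), 88.1% (82.1 to 92.7) and 86.4% (80.9 to 90.9), higher in both deletion libraries.

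Calcineurin's gamma catalytic subunit Ppp3cc had 2 higher circRNAs. The larger (chromosome 14, 70256360 to 70267506) held 341, 524, 240 and 316 reads, or 597, 809, 929 and 1087 scaled reads, and rose by 0.53 (SE 0.15, edgeR adjusted p = 0.0294; DESeq2 adjusted p = 0.0538). Without wild type P12 the difference was 0.19 (edgeR adjusted p = 0.751), and it was -0.93 under the SRPBM scaling. The smaller (70266630 to 70267506) held 46, 42, 29 and 58 reads and rose by 1.08 (SE 0.32, edgeR adjusted p = 0.0441; DESeq2 adjusted p = 0.243; -0.38 under the SRPBM scaling). Its call was lost whenever a library other than deletion P12 was left out.

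Both use the back-splice end at 70267506, as do 8 of the gene's 19 circRNAs with 90.7% of its reads. The larger circRNA kept a share of 60.0%, 63.0%, 60.8% and 62.2% of Ppp3cc reads. Its share thus stayed level while the scaled sum of the gene, 910, 1170, 1460 and 1657 scaled reads, was higher in the deletion (log2 0.59, edgeR adjusted p = 4.19e-05; DESeq2 adjusted p = 0.0368; -0.93 under the SRPBM scaling). Without wild type P12 the difference of the sum was 0.38 (edgeR adjusted p = 0.149). Photoreceptor genes were also higher in the deletion in their scaled sum (5379, 6486, 8462 and 8308 scaled reads), as were the lens genes, the bipolar cell genes (543, 548, 913 and 633), the pigment epithelium genes (106, 115, 189 and 212), the striated muscle genes (2202, 2280, 2429 and 2887) and the leukocyte genes, which were near 0. Their part in the Ppp3cc and Ppp1r13b results was not tested.

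Ppp4r1 gave 2 circRNAs that share the end at 65816050 and start close to each other. The called one starts at 65803160 and held 52, 67, 11 and 10 reads (log2 -1.34, SE 0.40, edgeR adjusted p = 0.0469; DESeq2 adjusted p = 0.247). The one from 65803211 held 115, 136, 42 and 40 reads and had a log2 difference of -0.46 (edgeR adjusted p = 0.294). Both were lower in the deletion libraries, but the called one lost its call with DESeq2 and without wild type P13 or deletion P13.

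The deposited junction ratio compares circular with other reads within each library, from the same junction reads as the test. Over the 22 members with at least 20 reads in each library its median was 0.637, 0.630, 0.652 and 0.615, against 0.624, 0.634, 0.629 and 0.627 over 2193 such circRNAs of all genes. Members ranged from 0.147 to 0.976. Phosphatase circles as a group thus had much the same junction ratio as other circles. Since the ratio uses the reads that made the calls, its values in the called circRNAs are a description. It was lower in both deletion libraries in the 6 lower calls, for example 0.286, 0.288, 0.124 and 0.145 for the Ppp1r37 circRNA. Both Ppp3cc circRNAs had higher ratios in both deletion libraries, 0.782, 0.798, 0.812 and 0.829 for the larger and 0.189, 0.147, 0.211 and 0.264 for the smaller. The Ppp1r13b circRNA had ratios of 0.958, 0.932, 0.976 and 0.958.

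**Figure D4:**
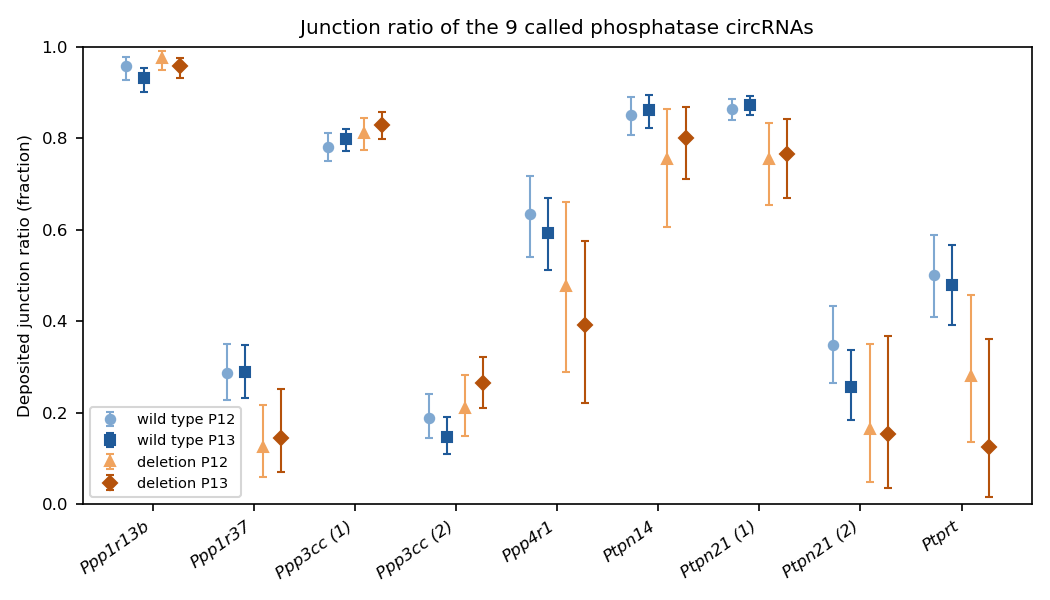
Deposited junction ratio (a fraction in which each junction read counts 2 times, vertical axis) of the 9 called circRNAs in each library. The 95% intervals are exact binomial ones put on the scale of this ratio, and they cover counting error only. The 6 lower calls (Ppp1r37, Ppp4r1, Ptpn14, both Ptpn21 and Ptprt) lie lower in both deletion libraries; Ppp1r13b stays between 0.932 and 0.976 and the smaller Ppp3cc circRNA between 0.147 and 0.264.

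Summed per host, 50 of 74 phosphatase genes could be tested. Of these 50, 9 reached the read filter through the wild-type libraries alone, Ppp1r37 and Ppp4r3b among them. For such hosts the filter itself favours a lower value in the deletion. Of the 50 tested hosts 2 were higher (Ppp3cc and Ppp1r13b) and 4 lower (Ptpn21, Ptpn14, Ppp1r37 and Ppp4r3b). Of all 3899 tested hosts 7.44% were called higher and 6.59% lower. Under an unadjusted p of 0.05 there were 3 higher and 7 lower, where 24.6% of all hosts passed in either direction. DESeq2 called 1 and 1 of the 27 members with a DESeq2 adjusted p, and 5.07% of all such hosts. Ppp4r3b, a PP4 regulatory subunit, held 31, 42, 5 and 4 reads over its circRNAs (log2 -1.78, edgeR adjusted p = 0.0460) with no called circRNA of its own (without deletion P13, edgeR adjusted p = 0.136). Its deletion libraries lay well below its wild-type libraries. The median over the 50 hosts was -0.18, and -0.05 over all hosts. Under the SRPBM scaling 0 of the 50 hosts were higher and 44 lower, with medians of -1.69 over these hosts and -1.57 over all. The count of lower hosts thus goes with a shift of all hosts.

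Hosts listed in every library numbered 51. In neither deletion library were 14 listed, the largest of them being Ptprs, a LAR-type receptor, with 20, 5, 0 and 0 reads, and in neither wild-type library 2. The deletion libraries were the shallower ones, and the share over all hosts is not given here. The 2 counts are therefore no result about phosphatase genes. At the circRNA level 1 member had at least 20 reads in a library and none listed in the other genotype: a Ppp6r3 circRNA (chromosome 19, 3490774 to 3496651) with 10, 25, 0 and 0 reads. Against a floor of 3 reads per library it was at least 3.74-fold lower in the deletion at P13 and at least 1.51-fold lower at P12, if it was truly absent there, and it did not pass the test (edgeR adjusted p = 0.118).

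With single libraries compared in pairs, a member was counted as different where the ratio of scaled reads was at least 2 or at most 0.5 and its 95% interval excluded 1, which compares libraries and not conditions. At P12, 11 of 109 members were higher in the deletion and 10 lower, and 21.5% of all circRNAs compared were different in either direction. At P13, 8 of 117 were higher and 12 lower, with 19.9% of all circRNAs different. Both days thus gave shares near those of all circRNAs.

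The second comparison is between the days, which asks what changes after the return to room air. The same model called 0 of 136 member circRNAs in either direction (0.0228% of all circRNAs were called), with 0 by DESeq2. At an unadjusted p under 0.05 there were 6 higher and 3 lower, where 3.57% of all circRNAs passed in either direction. Log2 differences, P13 over P12, ran from -1.51 to 1.64 with a smallest edgeR adjusted p of 0.999. On summed reads 0 of 50 hosts were called (0.103% of all hosts), with 3 higher and 1 lower at an unadjusted p under 0.05 (4.72% of all hosts passed in either direction). The main Ptpn21 circRNA differed by -0.06 between the days and Ptpn21 summed reads by -0.08.

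In single-library pairs, 9 of 154 members were higher at P13 in wild type and 6 lower, where 9.10% of all circRNAs were different in either direction. In the deletion 7 of 74 were higher and 5 lower, where 8.18% of all were different, so that the members' share in the deletion lay above that of all circRNAs and in wild type near it. The Ptpn14 circRNA was among the higher ones in the deletion, with a ratio of 2.01 (1.21 to 3.44), and had a ratio of 1.11 (0.889 to 1.39) in wild type. The main Ptpn21 circRNA had day ratios of 0.966 (0.851 to 1.10) in wild type and 0.947 (0.620 to 1.45) in the deletion, so that its level differed between genotypes and hardly between days.

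Related genes outside the family were read from 6 lists under the same genotype test. Over all tested circRNAs 5.03% were called higher and 3.59% lower, and over all tested hosts 7.44% and 6.59%. The counts per list are small and are given as a description. Other protein phosphatases (46 genes, 54 circRNAs tested) had 2 higher circRNAs, from Cdc14a (20, 8, 34 and 15 reads, log2 1.95) and Ilkap (35, 51, 25 and 64 reads, 1.13), and 1 lower, from the cofilin phosphatase Ssh2 (19, 37, 0 and 4 reads, -2.72). Myotubularins, which act on phosphoinositide lipids, had 3 higher of 20 tested, 2 from Mtmr7 and 1 from Mtmr3. One Mtmr7 circRNA (chromosome 8, 40590410 to 40609016) held 0, 0, 18 and 18 reads. It reached the read filter through the deletion libraries alone, and the Ssh2 circRNA through the wild-type libraries alone, which favours the signs seen. On summed reads Mtmr7 (log2 1.32, edgeR adjusted p = 5.63e-05) and Mtmr3 (0.36, 0.0461) were higher, signs that turned under the SRPBM scaling, and Mtmr6, with 19, 29, 0 and 0 reads, was lower (edgeR adjusted p = 0.00366). Mtmr6 also reached the read filter through the wild-type libraries alone.

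Partners of PP2A had 1 higher and 1 lower circRNA of 17 tested, both from the striatin Strn3, with 24, 38, 41 and 48 reads in the higher and 50, 62, 9 and 5 in the lower. Calcineurin regulators and targets had 1 higher of 8, from the calcineurin inhibitor Cabin1 (31, 46, 36 and 42 reads, log2 1.18). Partners of LAR-type receptors had 1 lower of 18, from the exchange factor Trio (47, 47, 6 and 4 reads, -2.07). Contactin and pleiotrophin partners of receptor phosphatases had 0 of 36, and on summed reads the scaffold gene Magi1 was lower (565, 510, 157 and 182 reads, -0.45, edgeR adjusted p = 0.0235). The lower Strn3 circRNA and the Trio circRNA reached the read filter through the wild-type libraries alone, which favours a lower value in the deletion. Of the 7 higher circRNAs in these lists, 4 (from Ilkap, Mtmr3, Mtmr7 and Cabin1) turned to a negative sign under the SRPBM scaling. No list had a call between the days.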

How the data were processed

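Ocular RNA from 4 groups of 1 library each was analysed. Libraries were made from RNA depleted of ribosomal and linear molecules and read from both ends, per the labels' protocols. The authors deposited, per circRNA and library, a count of junction reads, a count of non-junction reads and a junction ratio (a fraction), in the column layout of CIRI per the file headers. They also deposited SRPBM, a signal equal to the junction count times 1 constant per library. The submitters' processing notes name BWA and DESeq2 without a role. The build of the genome and its annotation: not given in the sources used here; coordinates are as deposited. Host symbols came from RefSeq's gene table of assembly GRCm38.p6 (7140 of 7146 identifiers matched, used for names only).

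Junction counts per circRNA and per single host were fitted with edgeR 4.0.16 (TMM, glmQLFit robust, genotype + day, at least 10 reads in at least 2 libraries, Benjamini-Hochberg at 0.05). Standard errors were derived from the F statistic. Effective sizes for circRNAs were 571398, 647714, 258475 and 290649. Ratios of single libraries carry exact conditional (Clopper-Pearson) 95% intervals and needed at least 20 reads over both libraries. Without molecular identifiers, intervals and floors cover only counting error. Alternatives were other scalings, other filters, DESeq2 1.42.0, each factor alone and leaving out each library. The fits without a library held the compared factor alone, with no term for the other factor. The scripts were tested on simulated data. Members and lists were chosen with earlier results of these data known. Named were the 2 most abundant Ptpn21 circRNAs, called circRNAs and hosts, the 20 hosts with most reads, the leading host and circRNA of each family, circRNAs unlisted in 1 genotype, and called genes of the partner lists; others were chosen after their values were seen.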

Additional observations from a re-analysis of the deposited data

Results flagged for a closer look

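The second most abundant Ptpn21 circRNA (chromosome 12, 98682519 to 98683615) went opposite ways on the 2 days. Its deletion over wild-type ratio of scaled junction reads was 0.379 at P12 and 2.48 at P13. Read the other way, its P13 over P12 ratio was 0.454 in wild type (0.242 to 0.823) and 2.96 in the deletion (1.15 to 9.02). All 4 ratios rest on 35, 18, 6 and 20 reads, with 1 library per group, and the difference between them was not tested. The main Ptpn21 circRNA, in contrast, had genotype ratios of 0.216 and 0.212 on the 2 days.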

How the results depend on the processing

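The lower main Ptpn21 circRNA kept its direction and its call under all 11 alternatives run (log2 -3.69 to -2.17), as did Ptpn21 summed reads. The deposited SRPBM scaling moved the median of all circRNAs to -1.54 and of all hosts to -1.57, with medians of -1.58 and -1.69 over the tested members. Under it 0 member circRNAs were higher and 70 lower, 0 hosts higher and 44 lower. The single-library counts were 0 and 77 at P12 and 0 and 89 at P13. All these counts go with the shift of the whole set and are no result about the members. The SRPBM scaling reversed the Ppp1r13b circRNA (-0.42), both Ppp3cc circRNAs (-0.93 and -0.38) and the summed reads of Ppp3cc (-0.93) and Ppp1r13b (-0.63), by its construction.

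The counts in this paragraph stand without a share over all circRNAs or all hosts, so they are no result about phosphatases as a group. Higher member circRNAs numbered 1 with no filter, 1 with DESeq2 and 1 with genotype as the single factor, and lower ones 1 with DESeq2. Higher hosts numbered 1 with DESeq2, and lower hosts 1 with DESeq2 and 2 with genotype alone. DESeq2 gave no adjusted p for 4 named results. Leaving out 1 library at a time, with the lone library of an arm assumed to vary like the others, gave 1 to 6 higher and 2 to 15 lower circRNAs. These fits held the compared factor alone, so they differ from the main model also in the missing term for the other factor. Results with few deletion reads, such as the Ppp1r37 circRNA, fell under the read filter when a wild-type library was left out and gave no value. Without deletion P12 there were 6 higher and 15 lower, and without wild type P13 2 lower. The same gave 1 to 3 higher and 1 to 5 lower hosts. For the day it gave 0 to 1 higher circRNAs. That 1, from Ppp1r9a (chromosome 6, 5113601 to 5115480; 32, 31, 0 and 19 reads), was called without wild type P12, where deletion P12 is the lone P12 library.

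Requiring at least 40 reads over both libraries gave single-library counts of 3 higher and 8 lower at P12, 3 higher and 7 lower at P13, 2 higher and 1 lower by day in wild type, and 3 higher and 0 lower by day in the deletion. Host sums, with at least 20 reads over both libraries, gave 1 higher and 8 lower of 50 at P12 and 1 and 5 of 47 at P13. By day they gave 2 and 2 of 54 in wild type, and 1 and 2 of 39 in the deletion. No share over all circRNAs or all hosts is given for the counts in this paragraph, so they are no result about phosphatases as a group. The cause of these differences was not tested. No paired analysis was possible because the labels carry no replicate numbers and each group holds 1 library.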
